A study of Mus musculus with 16 samples.

Results

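The genes of MHC class II antigen presentation were followed across the libraries of a mouse heart study. The set holds 8 genes, taken by symbol from the deposited table of 57010 gene models: H2-Aa, H2-Ab1 and H2-Eb1, which encode chains of the class II molecules, Cd74 (the invariant chain), H2-DMa and H2-DMb1 (the peptide exchange factor H2-DM), Ciita (the class II transactivator) and Ctss (cathepsin S). All 8 were among the 14066 genes that passed the filter on low counts and were tested. RNA of cardiomyocytes from C57BL/6 hearts was sequenced; the labels give no age for the mice. Mice received AAV9-Vector, a control virus (genotype label WT), or AAV9-PRODH (genotype label PRODH Overexpression), and 3 weeks later either sham surgery or TAC, transverse aortic constriction, which narrows the aorta and loads the left ventricle with pressure. Cells were collected 4 weeks after surgery. All 4 groups, called here vector sham, PRODH sham, vector TAC and PRODH TAC, therefore carried a virus and an operation, and each had 4 libraries. PRODH (proline dehydrogenase) carries out the opening step of proline breakdown in mitochondria; the series text calls its overexpression cardiac-specific, and the promoter is not given. The question set by the design is how the response to pressure overload differs between the viruses.

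Class II molecules show peptides from endocytosed proteins to CD4+ T cells. They are made mainly by dendritic cells, macrophages and B cells, and resident macrophages are a known class II-bearing cell of the heart. The alpha and beta chains assemble with the invariant chain, cathepsin S trims the invariant chain in the endosome, and H2-DM then exchanges its last fragment for antigenic peptide. Transcription of these genes is governed by CIITA, which binds no DNA itself and is recruited by RFX, CREB and NF-Y proteins on the X and Y boxes of class II promoters; interferon gamma is a classical inducer of Ciita.

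The libraries summed to between 15987580 and 22680212 estimated counts. Levels are in CPM, for which every library is brought to the same total after TMM, a scaling that adjusts for composition. Libraries of a group differed by more than counting noise, with a chi-square per gene of 2.87 to 30.7. No label states that each library is from its own animal, so the spread behind the p-values is that between libraries and may be technical. The labels do not give the species of the PRODH sequence in the virus, and counts of the mouse gene Prodh may not include its transcript. Prodh lay at 10.4 to 11.5 CPM in vector sham, 12.6 to 14.8 in PRODH sham, 6.19 to 8.38 in vector TAC and 12.3 to 14.7 in PRODH TAC. It was higher under AAV9-PRODH after TAC (log2 fold change 0.90, edgeR adjusted p = 2.19e-08), and the difference after sham was 0.33 (edgeR adjusted p = 0.0517). The 8 cardiomyocyte markers summed to between 20600 and 29600 CPM, so the labelled cell type carried its defining transcripts in every library.

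The promoters of 4 members are shown because they carry matches to the motifs described below. H2-Eb1, H2-DMb1 and H2-Aa carry elements of class II promoters, and Ctss carries the interferon-stimulated core alone. RefSeq promoter windows, which run from 250 bases before to 50 bases after the start site in GRCm38.p6, were matched for 5 of the 8 members. The 150 bases before the start are printed 5′ to 3′ on the gene's strand, at chr17:34305717-34305866 (plus strand) for H2-Eb1, chr17:34153041-34153190 (plus strand) for H2-DMb1, chr17:34287824-34287973 (minus strand) for H2-Aa and chr3:95526636-95526785 (plus strand) for Ctss. Capitals mark motif matches.
H2-Eb1: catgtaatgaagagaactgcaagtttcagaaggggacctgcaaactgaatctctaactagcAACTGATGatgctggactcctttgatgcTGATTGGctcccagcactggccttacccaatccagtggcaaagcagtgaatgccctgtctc
H2-DMb1: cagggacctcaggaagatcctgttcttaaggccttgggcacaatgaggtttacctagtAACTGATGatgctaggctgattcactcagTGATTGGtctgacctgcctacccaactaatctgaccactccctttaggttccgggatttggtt
H2-Aa: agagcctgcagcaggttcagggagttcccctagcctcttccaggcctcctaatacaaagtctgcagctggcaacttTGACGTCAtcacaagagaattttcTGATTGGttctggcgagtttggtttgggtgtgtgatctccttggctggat
Ctss: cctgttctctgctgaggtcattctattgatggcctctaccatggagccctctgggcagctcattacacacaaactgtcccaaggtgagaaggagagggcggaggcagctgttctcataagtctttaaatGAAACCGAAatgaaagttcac

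The motifs were chosen with these sequences in view and searched on both strands of every window of 300 bases. The X1 box core AACTGATG was found in 255 of 32851 windows (0.776%), the Y box core TGATTGG in 7.82%, the cyclic AMP response element TGACGTCA in 1.79% and the interferon-stimulated response element core GAAANNGAA in 8.56%. H2-Eb1 has the X1 core starting 89 bases before its start site and the Y core 61 bases before it, and H2-DMb1 has them at 92 and 63 bases. An X1 core and a Y core occurred together in 28 windows (0.0852%). H2-Aa has the cyclic AMP response element at 74 and the Y core at 50 bases before the start. The Ctss window has the interferon-stimulated core at 21 bases before the start and none of the other motifs, and neither window listed for H2-DMa matched any of the 4. No matches overlapped each other in these windows. A match is a description of letters in a window and not a measured binding site.

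The class II genes rose by similar amounts with TAC under the control vector. In vector TAC 8 of 8 members were called higher than in vector sham (edgeR quasi-likelihood test, adjusted p under 0.05 over all tested genes), where 30.3% of all tested genes were called higher and 26.2% lower. In 8 of 8 the lowest vector TAC library lay above the highest vector sham library, as for 26.1% of all tested genes. The median log2 fold change of the 8 was 1.50, with a range of 1.28 to 1.60, beside 0.02 over all tested genes. In PRODH TAC the members lay lower than in vector TAC, again in 8 of 8 cases, beside 24.6% of all tested genes called lower, 18.5% called higher and 22.6% with every PRODH TAC library below every vector TAC library. These comparisons share the vector TAC libraries, so they are not independent of each other. Ciita is counted among the 8, though before TMM scaling it reached the filter's level in 4 vector TAC and 2 PRODH TAC libraries and in no sham library. Its call as lower in PRODH TAC was lost in 19 of 22 alternative analyses.

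The 3 chain genes and Cd74 had the highest levels. H2-Aa encodes the alpha chain of I-A, the class II molecule that C57BL/6 mice display. It lay at 10.9, 14.8, 19.0 and 16.03 CPM in vector sham, 39.2, 45.3, 45.5 and 42.5 in vector TAC, 19.0, 18.8, 21.9 and 21.2 in PRODH sham, and 16.9, 18.6, 16.8 and 15.2 in PRODH TAC. The vector TAC libraries stood apart above all 12 others, and vector sham overlapped PRODH TAC. The log2 fold change was 1.50 ± 0.11 (SE) for TAC under the vector (edgeR adjusted p = 1.46e-12) and -1.35 ± 0.10 for PRODH TAC against vector TAC (edgeR adjusted p = 1.31e-11).

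H2-Ab1, the beta chain partner of H2-Aa, lay at 6.62, 11.4, 14.9 and 11.2 CPM in vector sham, 29.1, 31.8, 35.3 and 33.0 in vector TAC, 14.9, 11.2, 13.5 and 16.4 in PRODH sham, and 12.99, 12.02, 11.46 and 12.44 in PRODH TAC. Its PRODH TAC libraries were the most even of any group, at 12.2 ± 0.650 CPM (SD, n = 4), against 11.03 ± 3.38 in vector sham. It rose by 1.54 ± 0.15 with TAC under the vector (edgeR adjusted p = 3.41e-08) and was lower by a log2 difference of -1.40 ± 0.14 in PRODH TAC than in vector TAC (edgeR adjusted p = 1.71e-07).

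H2-Eb1 encodes the beta chain of I-E, and C57BL/6 mice are known to lack a functional gene for its alpha chain, H2-Ea. In these libraries H2-Ea had a count of 1 in 2 of 16 libraries and none in the others. H2-Eb1 lay at 10.96, 15.3, 17.2 and 12.2 CPM in vector sham, 33.0, 36.1, 38.9 and 40.3 in vector TAC, 15, 14.2, 14.9 and 17.8 in PRODH sham, and 13.8, 14.4, 11.2 and 13.6 in PRODH TAC. It changed together with the I-A chains: the log2 fold change was 1.41 ± 0.11 for TAC under the vector (edgeR adjusted p = 1.13e-11) and -1.48 ± 0.11 for PRODH TAC against vector TAC (edgeR adjusted p = 5.31e-12).

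Cd74 encodes the invariant chain, the chaperone that fills the peptide groove until the endosome. It was the most abundant member, at 22.5, 35.7, 39.6 and 27.8 CPM in vector sham and 84.7, 90.6, 93.1 and 89.6 in vector TAC. Under AAV9-PRODH it lay at 36.1, 38.9, 37.9 and 45.3 in PRODH sham and 32.1, 36.5, 32.7 and 32.8 in PRODH TAC. Every vector TAC library exceeded every library of the other groups. Cd74 rose by 1.51 ± 0.12 on the log2 scale with TAC under the vector (edgeR adjusted p = 3.42e-10), and the PRODH TAC libraries were lower than vector TAC by -1.42 ± 0.11 (edgeR adjusted p = 1.67e-09).

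**Figure D1:**
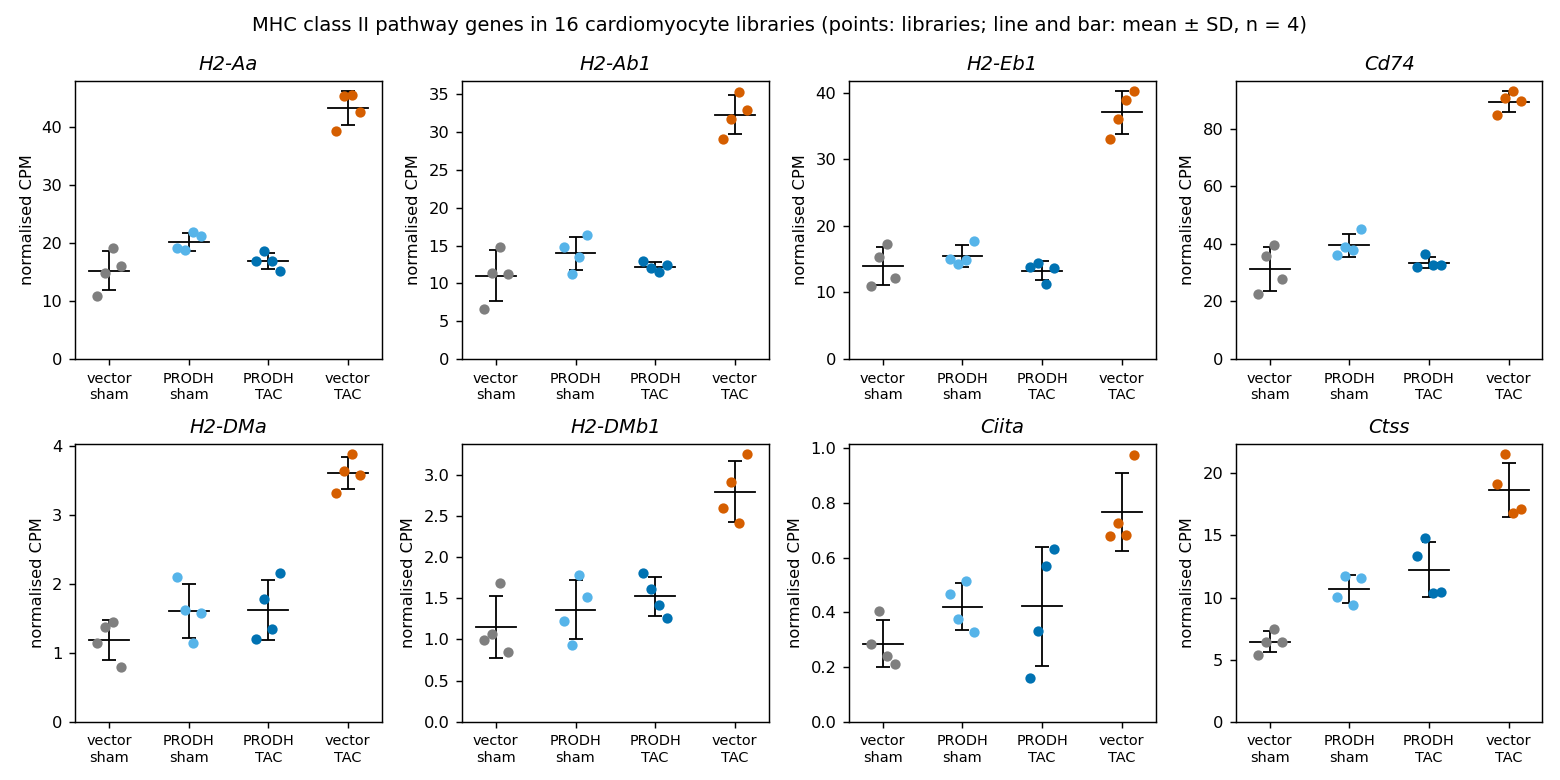
Normalised level (CPM, linear axis from 0) of each of the 8 class II genes in each of the 16 libraries, grouped as vector sham, PRODH sham, PRODH TAC and vector TAC, with points for libraries and a line and bar for mean ± SD (n = 4). The 4 vector TAC libraries lie above the other 12 in each panel, and Ctss is the member whose PRODH sham libraries all lie above vector sham.

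The H2-DM genes were measured at much lower counts. H2-DMa, the alpha subunit, lay at 1.14, 1.37, 1.45 and 0.794 CPM in vector sham, 3.32, 3.64, 3.88 and 3.58 in vector TAC, 2.10, 1.62, 1.15 and 1.58 in PRODH sham, and 1.21, 1.78, 1.34 and 2.17 in PRODH TAC. The vector TAC libraries were again above all others, while the other 3 groups overlapped. The log2 fold change was 1.60 ± 0.21 with TAC under the vector (edgeR adjusted p = 2.30e-07) and -1.15 ± 0.19 for PRODH TAC against vector TAC (edgeR adjusted p = 1.91e-05). Of the exon bases of H2-DMa, 10.4% overlap Brd2 on the opposite strand. The strand setting of the counting is not stated, and reads of the 2 genes in that stretch cannot be told apart.

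H2-DMb1, a beta subunit of H2-DM, lay at 0.996, 1.07, 1.69 and 0.846 CPM in vector sham, 2.60, 2.91, 2.41 and 3.25 in vector TAC, 1.23, 0.935, 1.78 and 1.51 in PRODH sham, and 1.81, 1.61, 1.42 and 1.26 in PRODH TAC. It rose by 1.28 ± 0.22 with TAC under the vector (edgeR adjusted p = 1.50e-05) and differed by -0.87 ± 0.20 between PRODH TAC and vector TAC (edgeR adjusted p = 9.35e-04). Its counts were fractional in 4 libraries and those of H2-DMa in 2, while the other 6 members had whole counts throughout. H2-DMb2, a closely similar neighbour that can share reads with H2-DMb1, fell below the filter, and the split between the pair is uncertain.

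Ciita was the scarcest member, with 4 to 8 estimated counts per library in vector sham, 5 to 9 in PRODH sham, 13 to 18 in vector TAC and 4 to 16 in PRODH TAC. Before TMM scaling, it reached the filter's level of 0.511 CPM in 4 vector TAC and 2 PRODH TAC libraries and in no sham library. Ciita thus entered the test mainly through the group where it was high. After TMM scaling, its level was 0.285, 0.406, 0.242 and 0.212 CPM in vector sham and 0.681, 0.728, 0.682 and 0.976 in vector TAC. It was 0.467, 0.374, 0.516 and 0.328 in PRODH sham, and 0.161, 0.331, 0.569 and 0.630 in PRODH TAC. The PRODH TAC libraries spanned the ranges of both sham groups. The log2 fold change with TAC under the vector was 1.38 ± 0.39 (edgeR adjusted p = 0.00337). The call of PRODH TAC against vector TAC, -0.84 ± 0.34 (edgeR adjusted p = 0.0463), was lost in 19 of 22 alternative analyses, over which the adjusted p ran from 0.027 to 0.185. The smallest difference, -0.57, came without PRODH TAC library 1, which held the lowest PRODH TAC value. Dexi overlaps 3.45% of the exon bases of Ciita on the opposite strand.

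Ctss, the endosomal protease of antigen-presenting cells that trims the invariant chain, had its lowest mean in vector sham, then PRODH sham, PRODH TAC and vector TAC. It lay at 5.41, 6.39, 7.49 and 6.40 CPM in vector sham, 10.04, 11.7, 9.40 and 11.6 in PRODH sham, 13.4, 14.8, 10.4 and 10.4 in PRODH TAC, and 19.1, 21.6, 16.8 and 17.1 in vector TAC. Vector sham was the lowest group without overlap, vector TAC the highest, and the AAV9-PRODH groups overlapped in between. TAC under the vector raised it by 1.53 ± 0.12 on the log2 scale (edgeR adjusted p = 1.38e-11), about as much as the chains. PRODH TAC was lower than vector TAC by -0.61 ± 0.11 (edgeR adjusted p = 5.46e-05), the smallest of the 8 differences.

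**Figure D2:**
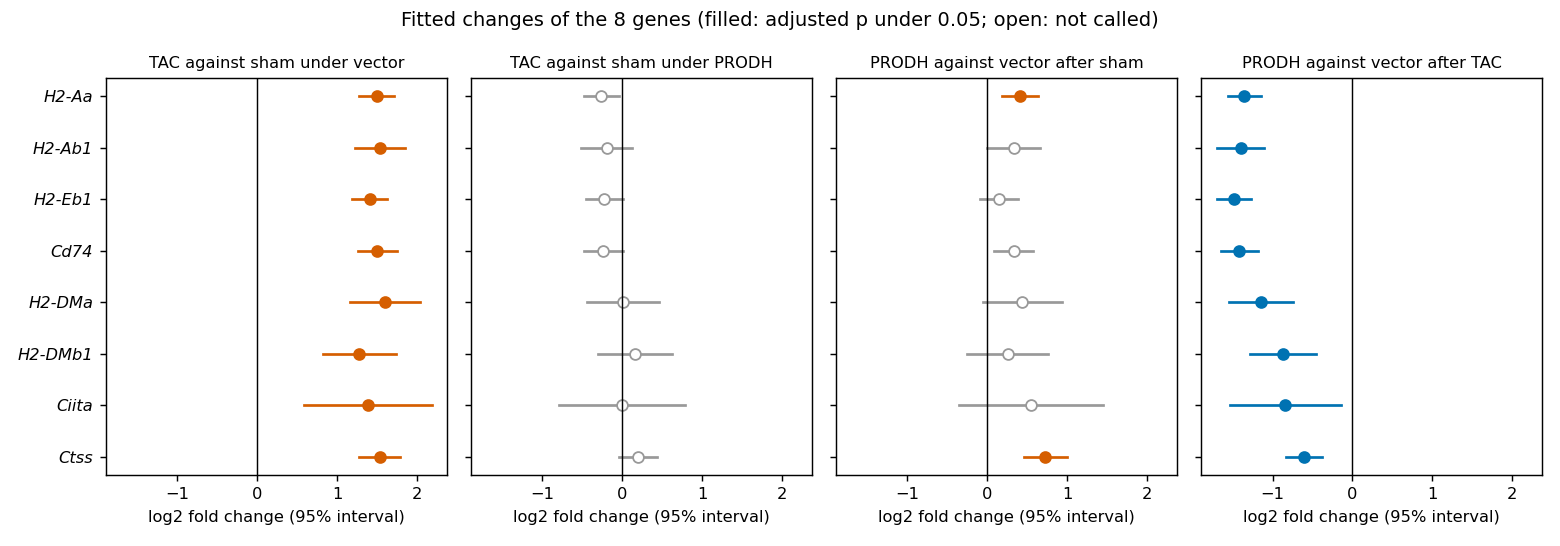
Log2 fold change with its 95% confidence interval for each of the 8 class II genes in the 4 pairwise comparisons, from edgeR, with filled points where the adjusted p was under 0.05. TAC under the vector lies between 1.28 and 1.60 for all members, TAC under AAV9-PRODH between -0.26 and 0.20, and PRODH TAC against vector TAC between -1.48 and -0.61.

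Under AAV9-PRODH no member passed the test for TAC against sham, in either direction (edgeR, adjusted p under 0.05), where 17.2% of all tested genes were called higher and 17.8% lower. The median of the 8 was -0.10 on the log2 scale, beside 0.02 over all tested genes. The largest decrease was that of H2-Aa, -0.26 with a 95% interval of -0.48 to -0.04 (edgeR adjusted p = 0.0581), and its PRODH TAC libraries lay wholly below PRODH sham, as did 17.4% of all tested genes. Cd74 had -0.24 (interval -0.48 to 0.00), H2-Eb1 -0.22 (interval -0.45 to 0.01) and H2-Ab1 -0.19 (interval -0.51 to 0.12). Ctss and H2-DMb1 lay on the other side, at 0.20 (interval -0.04 to 0.44) and 0.16 (interval -0.31 to 0.63), and the intervals of H2-DMa and Ciita, -0.44 to 0.46 and -0.79 to 0.79, were too wide to show a small change.

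The sign of these small values depended on the scaling. Scaled by library size alone, the median of all tested genes under AAV9-PRODH was 0.40 in place of 0.02, and 96.2% of the calls were higher in place of 49.2%. With that scaling Cd74 stood at 0.15, H2-Aa at 0.12, H2-Ab1 at 0.19, H2-Eb1 at 0.16 and Ciita at 0.36, all turned from negative to positive and none called, while Ctss (0.58, edgeR adjusted p = 3.89e-04) and H2-DMb1 (0.54, edgeR adjusted p = 0.0433) were called higher. Under the vector the same scaling gave a median over all genes of 0.37 in place of 0.02 and a share of higher calls of 86.2% in place of 53.6%. There 8 of 8 members were called higher as well, beside 53.1% of all tested genes.

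The change with TAC differed between the viruses for 7 of 8 members by the interaction term of the fit, all of them lower under AAV9-PRODH, where 15.8% of all tested genes had such a lower call and 10.9% a higher one. The interaction was -1.76 ± 0.15 for H2-Aa (edgeR adjusted p = 7.83e-10), -1.74 ± 0.16 for Cd74, -1.73 ± 0.21 for H2-Ab1 and -1.63 ± 0.16 for H2-Eb1. It was -1.58 ± 0.31 for H2-DMa, -1.33 ± 0.17 for Ctss and -1.12 ± 0.32 for H2-DMb1 (edgeR adjusted p = 0.0101). Ciita, at -1.39 ± 0.56, did not pass (edgeR adjusted p = 0.0642). Without PRODH sham library 3 the interaction of H2-DMb1 was -0.91 and no longer called (edgeR adjusted p = 0.0519).

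After sham surgery the 2 viruses differed less. Higher levels under AAV9-PRODH were called for 2 of 8 members, beside 2.81% of all tested genes, and none was called lower, beside 2.20% of all tested genes. These were Ctss, 0.72 ± 0.13 (edgeR adjusted p = 4.41e-04), and H2-Aa, 0.40 ± 0.11 (edgeR adjusted p = 0.0269). Ctss was also the 1 member whose PRODH sham libraries all exceeded vector sham, as they did for 5.25% of all tested genes. The call of H2-Aa was lost in 6 of 22 alternatives, among them leaving out vector sham library 1, 2 or 4 or PRODH sham library 3 or 4. Leaving out vector sham library 3 raised the count of called members to 4, with Cd74 at 0.45 and H2-Ab1 at 0.49. The members not called ranged from 0.15 for H2-Eb1 (interval -0.09 to 0.39) to 0.55 for Ciita (interval -0.36 to 1.45), and the median of the 8 was 0.37, beside 0.01 over all tested genes. With no filter on low counts 3 members were called, Cd74 with them (0.32, edgeR adjusted p = 0.00722). Some leucocyte markers were called higher in PRODH sham as well. These were 5 of 16 macrophage markers (Csf1r 0.50, C1qb 0.35, C1qc 0.62, Folr2 0.83 and Cd163 0.79), 2 of 4 pan-leucocyte markers (Ptprc 0.66 and Laptm5 0.62) and the B cell marker Ighm (0.72), with none lower. Of 3 tested dendritic cell markers 0 were called (median 0.04), and the T cell marker Cd4 (0.34) was not called either. These markers are named after their values were seen, and their part in the difference was not tested.

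Vector sham library 1 held the lowest vector sham value in 5 of 8 members, namely H2-Aa, H2-Ab1, H2-Eb1, Cd74 and Ctss, and it was also the library with the lowest total count. Library 3 of the same group held the highest value in 7 of 8 members. The coefficient of variation of Cd74 was 24.6% in vector sham, against 3.94% in vector TAC, 5.92% in PRODH TAC and 10.04% in PRODH sham.

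Compared per kilobase of the deposited gene length, the members kept 1 order in both vector groups. In vector sham the mean was 22.3 CPM per kb for Cd74, 13.5 for H2-Aa, 11.9 for H2-Eb1, 9.10 for H2-Ab1, 4.74 for Ctss, 1.07 for H2-DMa, 0.819 for H2-DMb1 and 0.0675 for Ciita. In vector TAC it was 63.5, 38.2, 31.7, 26.6, 13.8, 3.25, 1.99 and 0.181 in the same sequence of genes. The invariant chain thus exceeded each chain, and Ciita lay far below its target genes.

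Each member was also expressed as a percentage of Cd74 in the same library, on the CPM per kb scale. H2-Aa lay between 51.9% and 72.1% and H2-Ab1 between 33.6% and 47.9%, with overlap between all groups. H2-Eb1 was at 51.6% to 58.7% in vector sham, above its 44% to 50% in PRODH sham, at 46.9% to 54.2% in vector TAC and at 41.2% to 51.7% in PRODH TAC. H2-DMb1 was at 2.6% to 3.65% in vector TAC and 3.86% to 5.66% in PRODH TAC, with no overlap between these, and overlapped in the sham groups (3% to 4.45% and 2.41% to 4.70%). H2-DMa had group medians of 4.77% to 5.70% and Ciita of 0.267% to 0.44%, both with overlapping groups. Ctss stood at 18.7% to 25% of Cd74 (median 21.8%) in vector sham and 18.7% to 24.8% (median 21.7%) in vector TAC, but at 25.8% to 31.4% (median 27.7%) in PRODH sham and 32.9% to 43.2% (median 37.7%) in PRODH TAC. For Ctss the ranges of both AAV9-PRODH groups lay above those of both vector groups and did not overlap each other.

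In bulk RNA, fewer cells of a type and less RNA per cell cannot be told apart, and the levels of leucocyte markers moved with the class II genes. The 16 macrophage markers summed to 137 to 220 CPM in vector sham, 215 to 257 in PRODH sham, 229 to 284 in PRODH TAC and 401 to 430 in vector TAC. Of the 16, 15 were called higher with TAC under the vector (median 1.27), beside 30.3% of all tested genes. In PRODH TAC 13 were called lower than in vector TAC (median -0.69), beside 24.6%. None of the 16 was at 0 throughout. C1qb, a complement component made by macrophages, and Mrc1, the mannose receptor, were among the 4 with the smallest p in the first comparison, with Csf1r and Adgre1. The 3 not called in the second comparison, named after their values were seen, were Fcgr1 (0.08), Folr2 (-0.14) and Timd4 (0.46). Under AAV9-PRODH 3 of 16 were called higher with TAC, beside 17.2% of all tested genes, and 14 of 16 when scaled by library size alone, where 7875 of 14066 tested genes were called higher. Their part in the change of the class II genes was not tested.

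Set against the macrophage sum of the same library, Cd74 and H2-Aa did not keep a constant share, and the other members overlapped in part or throughout. Cd74 was 16% to 19.4% of that sum in vector sham, 15.5% to 18.1% in PRODH sham, 21.1% to 21.6% in vector TAC and 12.7% to 14.3% in PRODH TAC, so that vector TAC lay above and PRODH TAC below both sham groups without overlap. H2-Aa behaved alike, at 9.77% to 10.7% in vector TAC and 6.56% to 7.35% in PRODH TAC, with the sham groups between 7.94% and 9.26%. H2-Ab1 (7.25% to 8.21%) and H2-Eb1 (8.22% to 9.69%) in vector TAC lay above PRODH TAC (4.24% to 5.40% and 4.90% to 5.91%), but H2-Ab1 in PRODH TAC and H2-Eb1 in vector TAC overlapped a sham group. Shares of H2-DMa, H2-DMb1 and Ciita overlapped between vector TAC and PRODH TAC, with H2-DMb1 at medians of 0.565% to 0.666% and Ciita of 0.165% to 0.191% over the 4 groups. Ctss overlapped there too, at 3.90% to 5.08% in vector TAC and 4.53% to 5.26% in PRODH TAC. Lyz2 was the largest part of the macrophage sum, at 76.7 CPM on average in vector sham and 155 in vector TAC. It rose by 1.01 with TAC under the vector, beside 1.51 for Cd74. Named after their values were seen, Csf1r (1.53), C1qa (1.62) and C1qc (1.61) rose more than Cd74, and the other macrophage markers lay below it. The shares therefore depend on the markers summed. They are descriptions of the libraries and carry no test.

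**Figure D3:**
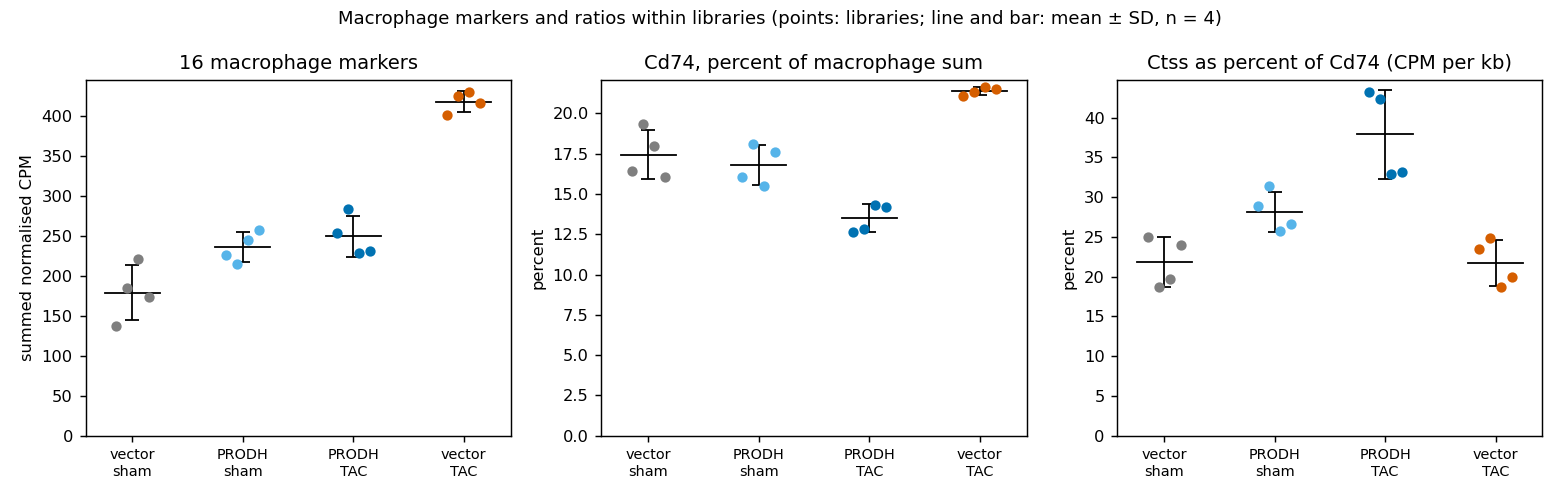
Summed CPM of 16 macrophage markers, Cd74 as a percentage of that sum, and Ctss as a percentage of Cd74 per kilobase, with a point for each of the 16 libraries by group and a line and bar for mean ± SD (n = 4). Vector TAC has the highest macrophage sum (401 to 430 CPM) and PRODH TAC the lowest Cd74 share of it (12.7% to 14.3%), while Ctss relative to Cd74 is highest in PRODH TAC (32.9% to 43.2%).

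Markers of the other class II-bearing cells were scarce. The 10 dendritic cell markers summed to 7.40 to 10 CPM in vector sham, 7.75 to 9.34 in PRODH sham, 10.6 to 12.5 in PRODH TAC and 13.6 to 15.9 in vector TAC. Zbtb46 made up most of these sums, with means of 6.71, 6.88, 8.75 and 10.8 CPM in that order, so they mainly follow 1 gene. Only Itgax, Zbtb46 and Clec9a could be tested. With TAC under the vector 3 of 3 rose, beside 30.3% of all tested genes called higher. In PRODH TAC 2 of 3 were lower than in vector TAC, beside 24.6% (1 of 3 when scaled by library size alone, beside 20.2%). Itgax (1.97) and Zbtb46 (0.34) were also called higher with TAC under AAV9-PRODH. The markers Flt3, Xcr1, Cd209a, Ccr7, Batf3, Siglech and Ccr9 failed the filter. Of 6 B cell markers 1 was tested, Ighm, the immunoglobulin mu heavy chain, with a sum of 1.21 to 3.35 CPM in vector sham, 3.22 to 5.04 in PRODH sham, 3.26 to 5.41 in PRODH TAC and 6.08 to 6.71 in vector TAC. Ighm rose by 1.43 with TAC under the vector and was lower by a log2 difference of -0.69 in PRODH TAC. Of 7 T and NK cell markers only Cd4 was tested, at 2.08 and -1.22 in the same comparisons, with sums of 0.476 to 0.913, 0.657 to 1.20, 0.772 to 1.57 and 1.99 to 2.82 CPM in the same order of groups. Cd4 averaged 0.877 CPM in vector TAC and 0.200 to 0.370 in the other groups, and Itgax 1.01 and 0.121 to 0.495. The filter's level was 0.511 CPM before TMM scaling, so both entered the test mainly through the group where they were high.

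The 4 pan-leucocyte markers Ptprc, Laptm5, Coro1a and Cd52 summed to 11.7 to 16 CPM in vector sham, 17.9 to 22.8 in PRODH sham, 21.4 to 26.1 in PRODH TAC and 33.4 to 42.9 in vector TAC. Of these, 4 of 4 rose with TAC under the vector, beside 30.3% of all tested genes called higher, and 3 of 4 were lower in PRODH TAC, beside 24.6%. Fibroblast and endothelial markers moved in the same direction. In these 2 comparisons 6 of 6 of each were called higher and 6 of 6 of each lower. Scaled by library size alone, 4 of 6 endothelial markers were lower in PRODH TAC than in vector TAC, beside 20.2% of all tested genes. The fibroblast sum was 100 to 147 CPM in vector sham, 139 to 140 in PRODH sham, 197 to 247 in PRODH TAC and 699 to 724 in vector TAC, and the endothelial sum 277 to 338, 288 to 310, 421 to 489 and 486 to 662. Unlike the class II genes, 6 of 6 fibroblast markers (median 0.91) and 6 of 6 endothelial markers (median 0.54) were also called higher with TAC under AAV9-PRODH, beside 17.2% of all tested genes. The cardiomyocyte sum ran the other way, at 26700 to 29600 CPM in vector sham, 26900 to 28900 in PRODH sham, 22200 to 24500 in PRODH TAC and 20600 to 21200 in vector TAC. How these marker levels bear on the class II result was not tested.

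Other genes of the pathway, from a list of 19 outside the members, gave 12 that could be tested. With TAC under the vector 7 of 12 were called higher, beside 30.3% of all tested genes, and 0 lower (median 0.69, beside 0.02). The 7 include Cd80, which entered the tests mainly through the TAC groups. In PRODH TAC 11 of 12 were called lower than in vector TAC, beside 24.6% of all tested genes, and 0 higher (median -0.44, beside -0.04). The 4 with the smallest p in the first comparison were Ctsz, Ifi30, Cd40 and Cd86. Ctsz, the lysosomal protease cathepsin Z, rose by 1.38 ± 0.10 and lay at 9.48 ± 0.952 CPM in vector sham, 10.4 ± 1.85 in PRODH sham, 13.4 ± 1.25 in PRODH TAC and 24.7 ± 1.47 in vector TAC (SD, n = 4). Ifi30, the thiol reductase that unfolds antigens in the endosome, rose by 1.71 ± 0.18, from 1.61 ± 0.161 to 5.32 ± 1.14 CPM, and lay at 2.57 ± 0.369 in PRODH TAC.

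Among the costimulatory genes of the list, Cd40, the receptor for T cell help, rose by 1.70 ± 0.26, and Cd86, a ligand of CD28, by 1.34 ± 0.23, and both were lower in PRODH TAC than in vector TAC, at -0.66 ± 0.22 and -0.67 ± 0.20. The gene without a call in that comparison, named after its value was seen, was Cd80, the second CD28 ligand, at -0.13 ± 0.28. With TAC under AAV9-PRODH Cd80 was called higher (1.15 ± 0.34, edgeR adjusted p = 0.00901). It reached at most 0.507 CPM in vector sham and 0.4585 in PRODH sham, and averaged 0.854 in vector TAC and 0.779 in PRODH TAC. The filter's level was 0.511 CPM before TMM scaling, so Cd80 entered the tests mainly through the TAC groups where it was high. With TAC under AAV9-PRODH 2 of 12 were called higher and 3 lower (median -0.10), beside 17.2% and 17.8% of all tested genes. Scaled by library size alone these counts were 9 higher and 0 lower (median 0.28). That scaling called 7875 of 14066 tested genes higher and 311 lower. Under the vector it called 12 of 12 higher, beside 53.1% of all tested genes. In PRODH TAC it called 9 of 12 lower than in vector TAC, beside 20.2% of all tested genes. With DESeq2's size factors 9 of 12 were lower there too, beside 3215 of 14066 tested genes. H2-Oa and H2-Ob, which encode the H2-DM inhibitor H2-O of B cells, failed the filter.

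**Figure D4:**
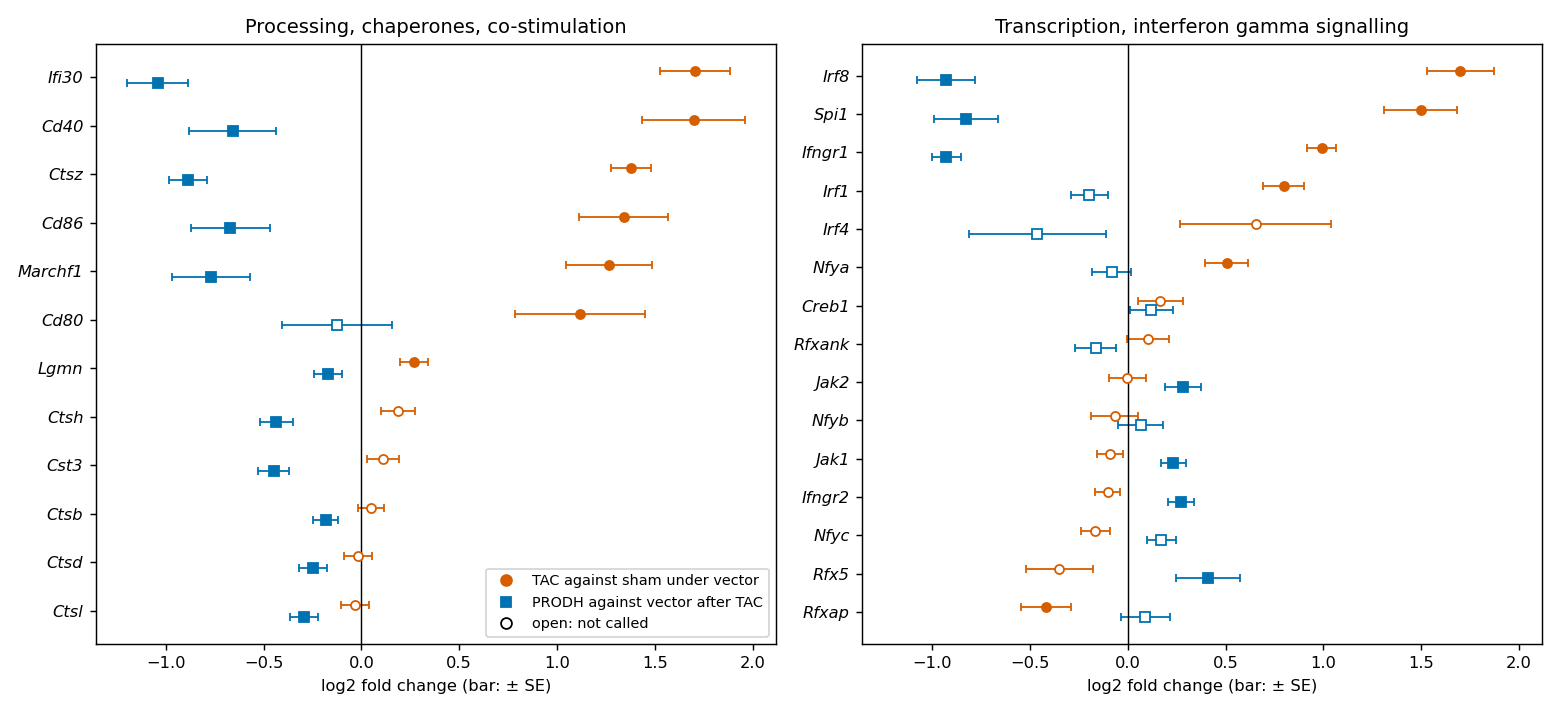
Log2 fold changes of tested genes of the class II pathway list and of the transcription and interferon gamma list (all but 1 tested gene of the latter), for TAC against sham under the vector and for PRODH TAC against vector TAC, with bars for SE and open points where a gene was not called. The pathway genes lie at or above 0 in the first comparison when called and below 0 in the second, where Cd80 is not called. Irf8, Spi1 and Ifngr1 of the other list do likewise, while Ifngr2, Jak1, Jak2 and Rfx5 lie above 0 in the second.

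The transcription and interferon gamma genes changed in both directions. Of 16 tested genes, 6 were called higher and 1 lower with TAC under the vector (median 0.14), beside 30.3% and 26.2% of all tested genes. In PRODH TAC 5 were called higher and 3 lower than in vector TAC (median 0.08), beside 18.5% and 24.6%. Scaled by library size alone the first count was 13 higher and 0 lower, where 53.1% of all tested genes were called higher. Irf8 and Spi1, transcription factors of the myeloid lineage, followed the class II genes, with 1.70 ± 0.17 and 1.50 ± 0.19 for TAC under the vector and -0.93 ± 0.15 and -0.83 ± 0.17 for PRODH TAC against vector TAC. Ifngr1, the ligand-binding chain of the interferon gamma receptor, did so as well, at 0.99 ± 0.07 and -0.93 ± 0.07. Other genes of the list were called higher in PRODH TAC than in vector TAC. Named after their values were seen, they include Ifngr2 (0.27), Jak1 (0.23), Jak2 (0.28) and Rfx5 (0.41). Irf1, an interferon-induced activator of Ciita, rose by 0.80 ± 0.10 with TAC under the vector, and its difference in PRODH TAC was -0.20 ± 0.10 (edgeR adjusted p = 0.0975). Ifng itself reached at most 3 counts in a library.

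The genes whose profile over the 16 libraries was nearest to the chains and Cd74 were ranked by the root mean square difference of centred log2 levels, over 8298 other genes with a mean of at least 5 CPM. The median difference over those genes was 0.675. The 8 nearest were Fbln1 (0.138), Gsn (0.139), Apoe (0.148), Fcgr2b (0.154), Fcgr3 (0.159), C3 (0.172), Timp2 (0.181) and Timp4 (0.203). Fcgr2b and Fcgr3 encode Fc gamma receptors of leucocytes, Apoe a lipid carrier, C3 the central complement protein and Gsn an actin-severing protein, while Fbln1, Timp2 and Timp4 encode extracellular matrix proteins or inhibitors of matrix proteases. Fbln1 lay at 19.6, 20.4, 17.8 and 45.5 CPM and Apoe at 72.8, 88.4, 81.7 and 187 CPM on average in vector sham, PRODH sham, PRODH TAC and vector TAC. Ctss, at 0.372, ranked 346 by the same measure and so lay farther from the chains than these genes did.

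**Figure D5:**
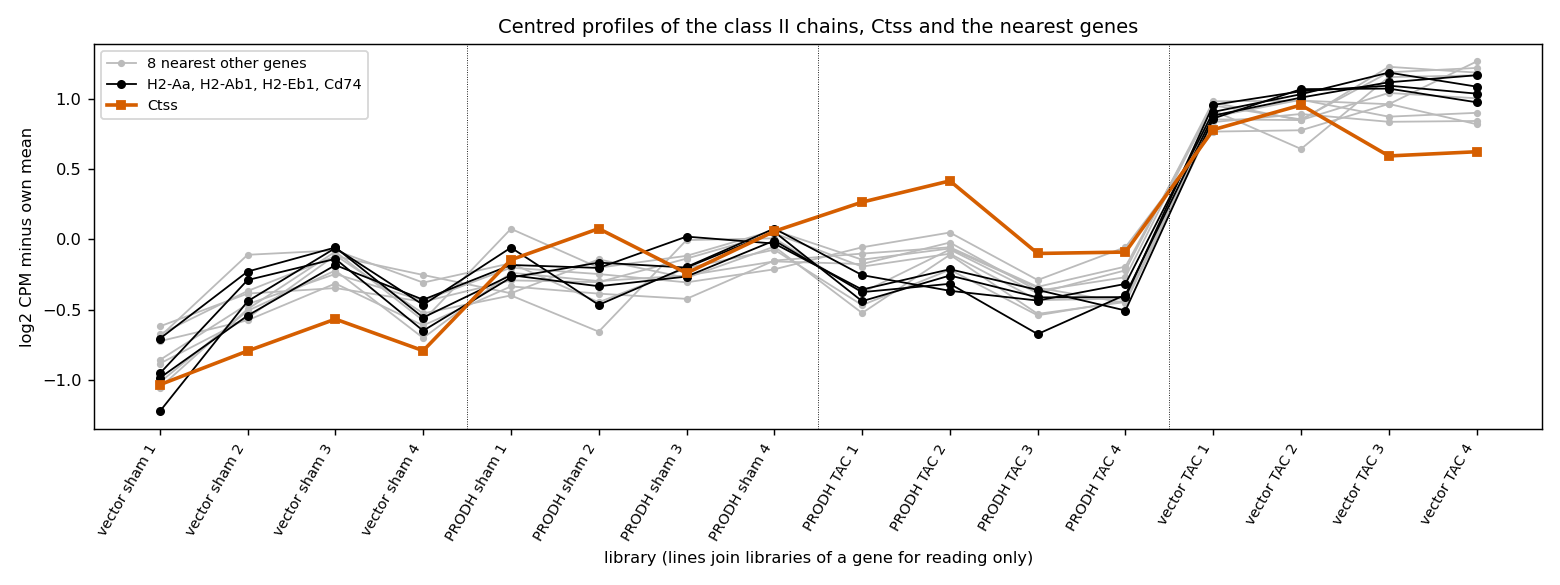
Centred log2 CPM over the 16 libraries for H2-Aa, H2-Ab1, H2-Eb1 and Cd74 in black, for the 8 nearest other genes in grey and for Ctss in orange. The nearest genes follow the mean of the 4 within a root mean square difference of 0.138 to 0.203, and Ctss departs from it by 0.372.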

How the data were processed

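The authors deposited estimated counts (not all whole numbers) for each gene in each library, with gene lengths in bases and their own group means. Per the labels' protocols, RNA was extracted in TRIzol, treated with DNase I and made into libraries with a SMARTER mRNA-Seq kit; the sources used here name no aligner, counter, strand setting or genome build. Counts were rounded, filtered with filterByExpr (minimum 10 in the smallest group, total 15), TMM-scaled and fitted with edgeR 4.0.16 (quasi-likelihood, R 4.3.3) over all 4 groups of 4 libraries without a block. Benjamini-Hochberg adjustment ran over all 14066 tested genes, with a threshold of 0.05. Fold changes use a prior count of 0.125. CPM per kb uses the deposited length. The fit was tested on simulated data. Alternatives were DESeq2 1.42.0, its size factors, library size alone, no filter, only the groups compared, a replicate block and leaving out each library. The members, gene lists and tests were chosen with earlier results of these data known. Beyond the members, up to 4 genes per list with the smallest p for TAC under the vector, untested defining markers and the 8 nearest profiles were named; others are said to be named after their values were seen. A gene of the transcription and interferon gamma list is counted in that list and otherwise not reported here.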

Additional observations from a re-analysis of the deposited data

Results flagged for a closer look

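The change with TAC differed between the viruses, by the interaction term in edgeR, for 7 of 8 class II genes. The log2 difference of the TAC changes, AAV9-PRODH minus vector, was -1.76 for H2-Aa, -1.74 for Cd74, -1.73 for H2-Ab1, -1.63 for H2-Eb1, -1.58 for H2-DMa, -1.33 for Ctss and -1.12 for H2-DMb1.

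A single library stood far from the other 3 of its group in 2 of the 32 sets of gene and group, by Dixon's criterion, which chance alone meets in about 1 in 20 sets. Cd74 stood at 36.5 CPM in PRODH TAC library 2, and Ciita at 0.976 CPM in vector TAC library 4.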

How the results depend on the processing

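In the alternatives run, 8 of 8 members were called higher with TAC under the vector throughout. Of these, Ciita reached the filter's level of the main fit in TAC libraries only. In PRODH TAC 7 or 8 members were called lower than in vector TAC, and 6 to 8 had a lower interaction. Over all tested genes, calls in either direction numbered 7375 to 8672, 5279 to 6235 and 3207 to 4110 in these comparisons. For TAC under AAV9-PRODH, library size alone called 8186 genes in place of 2425 higher and 2500 lower, and 2 members higher in place of 0. There 2 members were called lower with no filter and with only the groups compared, and 0 to 1 when a library was left out. After sham, the count of members called higher was 1 with only the groups compared, 3 with no filter and 1 to 4 when a library was left out, in place of 2.

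The sign of small values for TAC under AAV9-PRODH turned with library size alone for Cd74 (0.15), H2-Aa (0.12), H2-Ab1 (0.19), H2-Eb1 (0.16) and Ciita (0.36). Ciita was also at 0.011 with no filter, and with a library left out it ranged from -0.25 to 0.27 and H2-DMa from -0.15 to 0.21. The cause was not tested.

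With a replicate block, H2-Aa with TAC under AAV9-PRODH was called (-0.26, edgeR adjusted p = 0.0366), which made 1 member lower in place of 0. Same-numbered libraries correlated between -0.11 and 0.16 over 24 pairs, 3 of them over 0.1, so the numbers were not taken as pairing.

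DESeq2 gave no adjusted p for Ciita in some comparisons, and a fit of only the groups compared cannot give the interaction. Counts of 4 to 18 per library limit what can be said of Ciita.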
